A study of Homo sapiens with 11 samples.

Results

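The JmjC histone demethylase genes KDM2B, KDM3A, KDM4A, KDM4B, KDM4C, KDM5A, KDM5B, KDM5C, KDM6A and KDM6B were taken by their gene symbols. All 10 were found among the 28252 genes of the RT4 RNA-Seq tables and among the 26237 genes of the BEAS-2B promoter tables. All 10 also passed the filter on low counts, which left 14502 genes for the RNA test.

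JmjC demethylases remove methyl groups from histone lysines by hydroxylation, a reaction that needs ferrous iron, oxygen and 2-oxoglutarate. Nickel ions can take the place of the iron in this enzyme family, so the activity of the proteins is known to be sensitive to nickel. KDM3A and KDM4B are also known target genes of the hypoxia-inducible factors (HIF), whose own turnover depends on iron-dependent prolyl hydroxylases. The libraries measured mRNA and promoter H3K4me3, not enzyme activity.

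RT4, a human urinary bladder epithelial line of non-invasive bladder cancer, was used for RNA-Seq with 2 replicates in each of 3 conditions. UT cells were untreated. Ni-E cells were kept in 100 μM NiCl2 over 6 weeks. Ni-W cells had that exposure and then 2 weeks in medium free of nickel. BEAS-2B, a human lung epithelial line, was used for H3K4me3 ChIP-Seq with 1 library per condition (UT, Ni-E after the same dose and time, and Ni-W). The BEAS-2B Ni-W cells were expanded from a single colony that grew out after the exposure and were kept for more than 6 months without nickel, as far as the labels tell, since they also give 2 weeks for this line. No cloning is described for the RT4 Ni-W cells. The 2 lines differ in tissue, assay and time after nickel, so their values are given side by side and were not tested against each other.

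RT4 libraries held 17075833 to 27736454 estimated counts. In each condition replicate 2 was the deeper library, and the same-numbered libraries of different conditions deviated together, so each test was also run with the replicate number as a block. The 5 epithelial markers summed to 7674 to 9452 TPM (the length-corrected share of transcripts on a fixed scale) per library, the 6 mesenchymal markers to 1.09 to 5.13 TPM and the 5 blood and endothelial markers to at most 0.06 TPM. Of 9 urothelial markers, 3 were lower in Ni-E and 2 lower in Ni-W cells (edgeR adjusted p from 0.0085 to 0.0376), and with the replicate block 6 (UPK1A, UPK1B, UPK2, UPK3A, KRT13 and KRT20) and 3 were lower. The summed level of the 9 was 5405 to 5905 TPM in UT, 6105 to 6251 TPM in Ni-E and 6288 to 7559 TPM in Ni-W cells, but KRT7 alone made up 4384 to 6549 TPM of it, so the sum does not follow the markers that fell. In Ni-W compared to Ni-E cells, 5 of the 9 (the 4 uroplakins and KRT20) were higher with the block. Of the 2 mesenchymal markers that passed the filter, COL3A1 was higher than in UT cells in Ni-E and Ni-W cells with the block. Of the 5 epithelial markers, EPCAM was lower with the block in Ni-E (log2 -0.39, edgeR adjusted p = 0.0159) and in Ni-W cells (-0.50, 0.00579). The part of these marker differences in the results below was not tested. The depth of the BEAS-2B libraries, estimated from the steps in the promoter RPKM, was 28385777 (UT), 37494724 (Ni-E) and 29933546 (Ni-W) reads. Promoters of the epithelial keratins KRT8 and KRT18 were marked in UT BEAS-2B cells (7.33 and 7.26 RPKM, reads corrected for window length and library depth). That of EPCAM had 2.21 RPKM, whereas those of KRT19 and CDH1 had 0.432 and 1.02 RPKM, below the library median of 1.57 RPKM. Of the mesenchymal markers, COL1A1 and PDGFRB were also marked (8.74 and 6.98 RPKM), and COL1A2, COL3A1, DCN and LUM had at most 0.476 RPKM.

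All 10 genes were expressed in RT4 cells. On the per-length TPM scale, the mean level over 6 libraries ran from 56.3 TPM for KDM4A through KDM5C (40.5), KDM3A (37.2), KDM5B (33.7), KDM2B (22.2), KDM6B (20.4), KDM4B (19.7), KDM5A (16.1) and KDM6A (9.09) to 8.05 TPM for KDM4C. The highest lay above 90.2% and the lowest above 68.0% of all genes in the tables. No pair of neighbours in this order was separated, since the ranges of each gene and the next over the 6 libraries overlapped. The plot of TPM by library shows KDM3A near KDM2B in UT cells and near KDM4A in Ni-E cells.

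**Figure D1:**
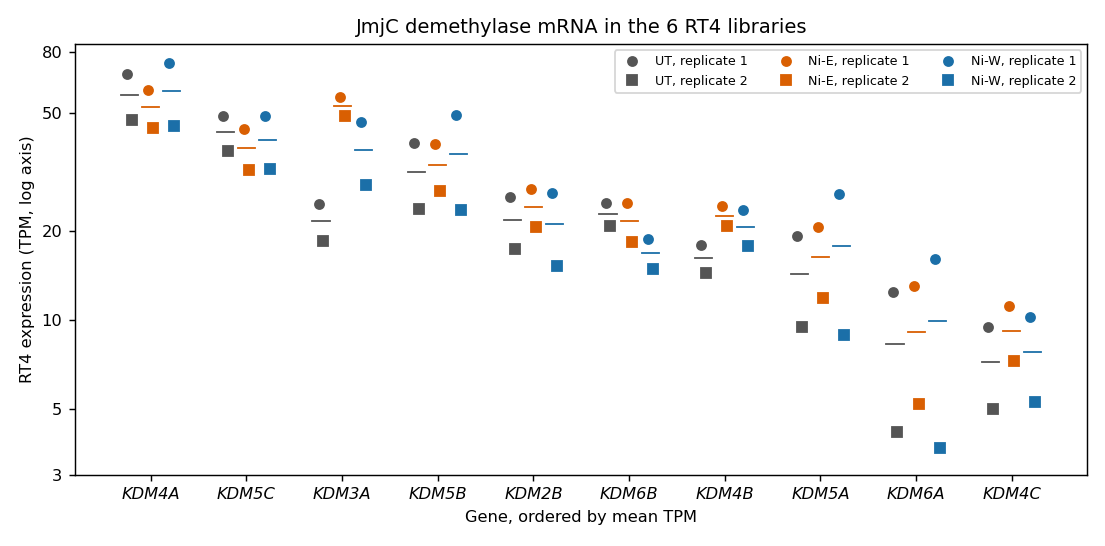
Expression of the 10 JmjC demethylases in RT4 cells in TPM on a log axis, with circles for replicate 1, squares for replicate 2, colours for UT, Ni-E and Ni-W, and a short line at the mean of the 2 replicates. Replicate 1 lies above replicate 2 for each gene and condition, and KDM3A in Ni-E cells (48.8 and 56.6 TPM) lies above KDM3A in UT cells (18.5 and 24.6 TPM).

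KDM3A, which removes mono- and dimethyl groups from H3K9, was the member called higher in Ni-E cells both with and without the replicate block. It lies at chr2:86440647-86492716 on the plus strand (GENCODE v44, GRCh38). KDM3A had 24.6 and 18.5 TPM in UT, 56.6 and 48.8 TPM in Ni-E and 46.4 and 28.5 TPM in Ni-W cells (replicates 1 and 2). Both Ni-E libraries were above both UT libraries, and the Ni-W libraries lay between them in each replicate number. In depth-corrected counts scaled by edgeR's TMM factors (CPM), the values were 58.1 and 52.2 in UT, 137 and 132 in Ni-E and 102 and 81.4 in Ni-W cells. The 3 conditions did not overlap on this scale. Of the 10 members, 2 (KDM3A and KDM4B) had both Ni-E libraries above both UT libraries and 0 had both below, compared to 20.3% and 19.3% of tested genes. The same 2 members had both Ni-W libraries above UT (15.1% of tested genes), KDM5C and KDM6B both below (14.1%), and KDM3A, KDM4B and KDM6B had both Ni-W libraries below Ni-E, as 12.7% of tested genes had, with none of the 10 above (12.7%).

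In Ni-E compared to UT cells, KDM3A was 2.45-fold higher, a log2 fold change of 1.29 ± 0.19 (SE, n = 2 per group; edgeR quasi-likelihood test, adjusted p = 0.0363 over 14502 genes). It was the only 1 of the 10 genes called higher and none was called lower, where 1.45% of all tested genes were called higher and 0.71% lower. KDM3A and KDM4B passed an unadjusted p of 0.05, as did 12.2% of all tested genes. With the replicate block, the KDM3A difference was 1.29 ± 0.11 (adjusted p = 2.57e-05). The call was lost without UT replicate 1 (log2 1.37, adjusted p = 0.192), UT replicate 2 (1.22, 0.285), Ni-E replicate 1 (1.26, 0.309) or Ni-E replicate 2 (1.32, 0.279), where 1 group keeps a single library that is assumed to vary like the other groups. It was also lost with limma on log2(TPM + 1) (adjusted p = 0.164).

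After 2 weeks without nickel, KDM3A stood 1.66-fold above UT cells (log2 0.73 ± 0.18; edgeR adjusted p = 0.211), which did not pass the test without the block and passed it with the block (0.73 ± 0.11, adjusted p = 0.00169). The Ni-W level was 0.679 times the Ni-E level (log2 -0.56 ± 0.18; edgeR adjusted p = 0.689), and with the block the difference of -0.57 ± 0.11 had an adjusted p of 0.0121. In the model without the block, none of the 10 genes was called in Ni-W compared to UT cells (2 at an unadjusted p under 0.05, as were 1323 genes or 9.12%, and 0 with DESeq2, which called 437 genes), where 0.503% of tested genes were called higher and 0.0965% lower. In Ni-W compared to Ni-E cells 0 of 14502 genes were called without the block (edgeR). In that comparison 808 genes and 1 member, KDM3A, had an unadjusted p under 0.05, DESeq2 called 139 genes and 0 members, and the block fit called 3.2% of genes higher and 2.68% lower. With the block, the share of genes called in Ni-E compared to UT cells was 10.4% higher and 7.4% lower, and in Ni-W compared to UT cells 7.5% higher and 4.18% lower. These larger shares are the background for the members' calls under the block, which were 2 higher in Ni-E and 1 higher and 1 lower in Ni-W compared to UT cells, and 1 lower in Ni-W compared to Ni-E cells. The 3 comparisons share their libraries.

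**Figure D2:**
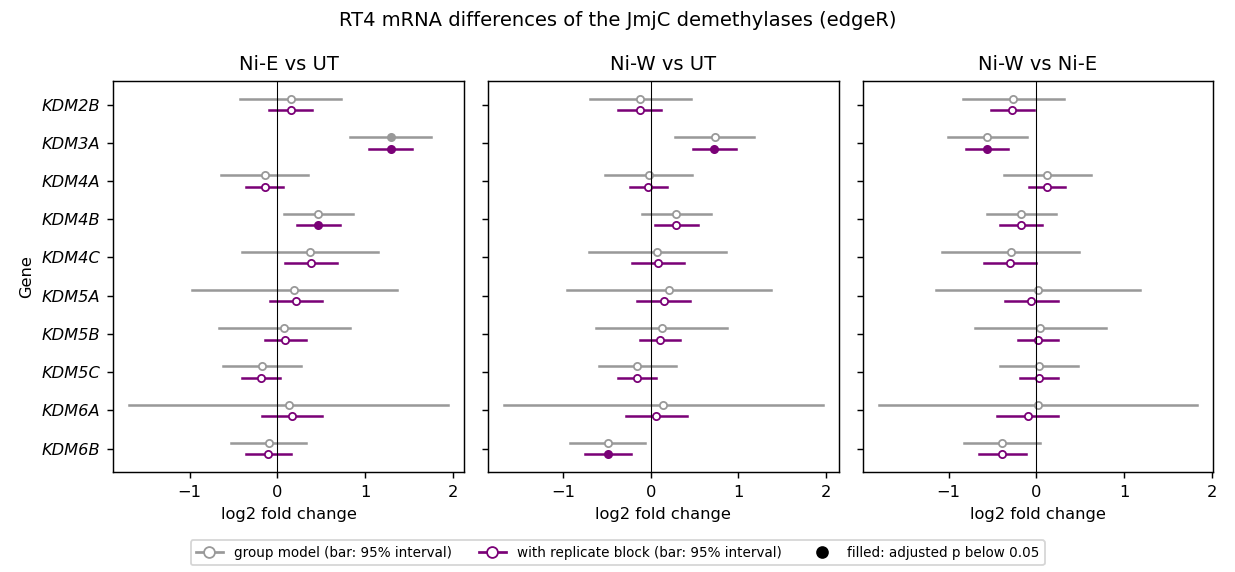
Log2 fold changes of the 10 genes in RT4 cells for Ni-E vs UT, Ni-W vs UT and Ni-W vs Ni-E, in grey from the model of groups alone and in purple with the replicate number as a block. Bars are 95% intervals from the edgeR fits and filled points have an adjusted p below 0.05: KDM3A is filled in Ni-E vs UT in both fits. Filled in the block fit alone are KDM4B in Ni-E vs UT, KDM3A and KDM6B in Ni-W vs UT, and KDM3A in Ni-W vs Ni-E.

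The pattern of KDM3A over the 6 libraries was followed most closely by 3 genes among 11140 genes with a mean of at least 5 CPM. These were OSBPL3, an oxysterol-binding protein (Pearson r = 0.998), the kinase gene STK17A (0.997) and the calmodulin-dependent kinase gene CAMK1D (0.996), all on log2 CPM. OSBPL3 had 61.4 and 55 CPM in UT, 112.6 and 105.7 CPM in Ni-E and 92.2 and 76.3 CPM in Ni-W cells. The points share libraries and conditions, and the values describe likeness only.

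To show where the letters of a hypoxia response element core stand at these genes, the 250 bases before each RefSeq start (GRCh38.p14) were searched for ACGTG and GCGTG on both strands. At least 1 match was found in 8 of the 10 members and in 43.08% of 27305 promoters of the same length. ACGTG was found in 3 members (KDM4B, KDM4C and KDM6A; 18.68% of all promoters) and GCGTG in 8 (31.91%). Neither was found for KDM2B or KDM5C. The members' windows had a median GC content of 62.2% compared to 58.0% for all promoters, and a median ratio of observed to expected CpG of 0.833 compared to 0.556. A palindromic CACGTG counts as 2 overlapping ACGTG matches, and a match is a description of letters, not of factor binding. Stretches of 4 promoters are shown with the matches in capitals, for KDM3A, KDM4B and KDM6B, whose RNA was called in at least 1 fit, and for KDM4C, whose promoter mark differed most between conditions.
KDM3A, chr2:86441333-86441361, plus strand: ccgggaggctgtGCGTGtcttgtgagagc
KDM4B, chr19:4968863-4969112, plus strand: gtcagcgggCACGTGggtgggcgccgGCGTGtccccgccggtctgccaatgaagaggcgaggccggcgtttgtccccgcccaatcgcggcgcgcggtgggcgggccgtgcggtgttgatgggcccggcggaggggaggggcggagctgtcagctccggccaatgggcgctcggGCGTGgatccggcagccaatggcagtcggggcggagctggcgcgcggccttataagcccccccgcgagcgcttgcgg
KDM4C, chr9:6757930-6757959, plus strand: ggccccagcggtCACGTGacggcgcgcgcg
KDM6B, chr17:7833967-7834216, plus strand: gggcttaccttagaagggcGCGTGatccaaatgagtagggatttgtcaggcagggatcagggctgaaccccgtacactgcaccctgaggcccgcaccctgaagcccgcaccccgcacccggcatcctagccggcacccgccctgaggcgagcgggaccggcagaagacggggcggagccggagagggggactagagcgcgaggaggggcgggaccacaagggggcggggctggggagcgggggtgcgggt
The KDM3A window holds 1 match, a GCGTG whose first base lies 26 bases before the RefSeq start. The KDM4B window holds a CACGTG 241 bases, and GCGTG matches 224 and 77 bases, before the start. The KDM4C window holds 2 CACGTG palindromes, the nearer of which is shown. For KDM3A and KDM4C only short stretches are given because 99 and 250 of the 250 bases lie in exons of longer GENCODE transcripts.

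The KDM4 genes encode demethylases of tri- and dimethylated H3K9 and H3K36. KDM4A lies at chr1:43650149-43705518, KDM4B at chr19:4969113-5153598 and KDM4C at chr9:6720863-7175648, all on the plus strand. KDM4B had 17.9 and 14.4 TPM in UT, 24.2 and 20.7 TPM in Ni-E and 23.4 and 17.8 TPM in Ni-W cells. On the CPM scale, the Ni-E libraries (71.1 and 68.5) lay above the Ni-W (61.9 and 61.8) and UT (51.2 and 49.7) libraries without overlap. KDM4B was 1.38-fold higher in Ni-E than in UT cells (log2 0.47 ± 0.16; edgeR adjusted p = 0.294), a difference that passed the test with the replicate block (0.47 ± 0.11, adjusted p = 0.0133). Its Ni-W difference from UT of 0.29 ± 0.16 did not pass the edgeR test in either fit (adjusted p = 0.772, and 0.116 with the block).

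KDM4C was the member with the lowest level. It had 9.45 and 4.99 TPM in UT, 11.1 and 7.27 TPM in Ni-E and 10.3 and 5.27 TPM in Ni-W cells. Replicate 1 was above replicate 2 throughout, and the conditions overlapped. The Ni-E difference from UT was 0.37 ± 0.32 (edgeR adjusted p = 0.867; with the block 0.38 ± 0.13, adjusted p = 0.0759). RSEM's mean transcript length for KDM4C, weighted by the estimated isoform shares of 16 transcripts, was 4627 and 4798 bases in UT, 4734 and 4741 in Ni-E and 4749 and 4917 in Ni-W cells. The range was 6.10% of the mean, compared to 2.99% for KDM6A and at most 1.13% for the other members. The UT libraries overlapped both other conditions, and both Ni-W libraries lay above both Ni-E libraries.

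KDM4A, the member with the highest level, had 67.6 and 47.3 TPM in UT, 59.8 and 44.4 TPM in Ni-E and 73.3 and 45.2 TPM in Ni-W cells. These ranges overlapped, and the log2 differences from UT were -0.14 ± 0.20 for Ni-E (95% interval -0.64 to 0.35) and -0.02 ± 0.20 for Ni-W cells (-0.52 to 0.47). KDM4A overlaps the antisense gene KDM4A-AS1, and since use of strand in the counting is not given, reads of the 2 cannot be told apart.

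The KDM5 genes encode the demethylases of H3K4me3, the mark profiled in BEAS-2B cells. KDM5A lies at chr12:280057-389320, KDM5B at chr1:202724495-202808487 and KDM5C at chrX:53176283-53225422, all on the minus strand. None of the 3 was called in RT4 cells in any of the 3 comparisons, with or without the block. KDM5A had 19.2 and 9.44 TPM in UT, 20.6 and 11.8 TPM in Ni-E and 26.6 and 8.87 TPM in Ni-W cells. KDM5B had 39.4 and 23.7 TPM in UT, 39.1 and 27.3 TPM in Ni-E and 49.1 and 23.5 TPM in Ni-W cells. For both genes the gap between replicates was wider than that between conditions. KDM5C had 48.7 and 37.1 TPM in UT, 44.03 and 32.1 TPM in Ni-E and 48.6 and 32.4 TPM in Ni-W cells. On the CPM scale both Ni-W libraries of KDM5C (152 and 134) lay below both UT libraries (165 and 152), though the nearest values round to the same number. With the replicate block, the 95% intervals of the Ni-E difference from UT were -0.09 to 0.51 for KDM5A, -0.14 to 0.32 for KDM5B and -0.40 to 0.03 for KDM5C on the log2 scale.

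KDM6A and KDM6B encode demethylases of H3K27me3, and KDM6B is known as the inducible one of the pair. KDM6A lies at chrX:44873188-45112779 and KDM6B at chr17:7834217-7854796, both on the plus strand. KDM6B had 24.7 and 20.8 TPM in UT, 24.7 and 18.3 TPM in Ni-E and 18.8 and 14.9 TPM in Ni-W cells. It was the member with both Ni-W libraries below all 4 others on the CPM scale (59.1 and 61.3, compared to 84.1 and 85.1 in UT and 86.4 and 71.7 in Ni-E cells). Of all tested genes, 14.1% had both Ni-W libraries below UT and 12.7% had both below Ni-E. The share with both at once was not counted. In Ni-W compared to UT cells KDM6B was 0.712 times as high (log2 -0.49 ± 0.17; edgeR adjusted p = 0.447), and with the replicate block the difference of -0.49 ± 0.12 passed the test (adjusted p = 0.0227). Its difference in Ni-E compared to UT cells was -0.10 ± 0.17, and from Ni-E to Ni-W cells -0.39 ± 0.17 (edgeR adjusted p = 0.962; with the block -0.39 ± 0.12, adjusted p = 0.0941). Thus KDM6B was lower than UT in the block fit in Ni-W cells, and whether this differed from Ni-E cells did not pass the test.

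KDM6A had 12.4 and 4.17 TPM in UT, 13.0 and 5.18 TPM in Ni-E and 16.1 and 3.69 TPM in Ni-W cells. The conditions overlapped fully, while replicate 1 was far above replicate 2 in each. Between replicates, KDM6A differed by 1.34, 1.17 and 1.76 on the log2 CPM scale (order UT, Ni-E, Ni-W), more than 96.9%, 97.4% and 97.7% of tested genes. KDM5A differed by 0.75, 0.64 and 1.19, and KDM4B by 0.04, 0.05 and 0.00. On this scale 9, 10 and 9 of the 10 members were higher in replicate 1, in the same order, compared to 48.0%, 49.6% and 48.6% of all tested genes. This shift moved with depth, replicate 2 being deeper throughout, and the part of depth or culture in it was not tested. Without the block it set the width of the intervals: for KDM6A the 95% interval of the Ni-E difference from UT was -1.69 to 1.95, and with the block it was -0.18 to 0.51.

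KDM2B, which removes dimethyl groups from H3K36 and binds unmethylated CpG islands, lies at chr12:121429096-121581023 on the minus strand. It had 26.0 and 17.4 TPM in UT, 27.5 and 20.54 TPM in Ni-E and 26.8 and 15.2 TPM in Ni-W cells. The conditions overlapped, and no comparison passed the test in either fit. The log2 differences were 0.15 ± 0.23 in Ni-E and -0.12 ± 0.23 in Ni-W compared to UT cells.

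Other JmjC proteins were counted from a list of 12. None was called in any comparison by edgeR without the block or by DESeq2, and 0 had an unadjusted edgeR p under 0.05. With the block 1, KDM7A, a demethylase of H3K9 and H3K27, was lower in Ni-E than in UT cells (log2 -0.77 ± 0.21, edgeR adjusted p = 0.0296; 11.5 and 9.62 CPM in UT, 6.34 and 5.94 CPM in Ni-E cells). The flavin-dependent demethylases, which use no iron, were KDM1A and KDM1B. KDM1A differed from UT by -0.07 in Ni-E and -0.04 in Ni-W cells and KDM1B by 0.34 and 0.25 (log2, edgeR), with no call in either fit or by DESeq2 and no unadjusted p under 0.05. The median log2 difference in Ni-E compared to UT cells was 0.14 for the 10 members, -0.01 for the 12 other JmjC genes and -0.01 for all tested genes.

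Among 13 other iron and 2-oxoglutarate dioxygenases, 3 rose in Ni-E compared to UT cells by the edgeR test and none fell. They were EGLN3, a HIF prolyl hydroxylase (log2 0.98, adjusted p = 0.0404), P4HA2, a collagen prolyl hydroxylase (1.45, 0.0228), and PLOD2, a collagen lysyl hydroxylase (3.43, 0.0169). With the block 6 of the 13 rose, EGLN1, P4HA1 and TET2 in addition. Of 10 HIF target genes, a list that also holds EGLN3, 4 rose in Ni-E compared to UT cells without the block and 10 with it. The largest changes were ADM, a vasodilator peptide (log2 2.30; 61.9 and 64.6 TPM in UT, 299 and 333 TPM in Ni-E cells), NDRG1 (2.03, edgeR adjusted p = 0.0577) and BNIP3, a mitophagy receptor (1.95, adjusted p = 0.0113). In Ni-W compared to UT cells none of either list was called by edgeR without the block, where 4 and 6 had an unadjusted p under 0.05 and DESeq2 called 2 and 3. With the block 5 of 13 and 8 of 10 were higher. The median of the HIF targets was 1.35 in Ni-E and 0.77 in Ni-W cells, beside 1.29 and 0.73 for KDM3A. Single targets ran from 0.79 (CA9) to 2.30 (ADM) in Ni-E and from 0.009 (CA9) to 1.75 (ADM) in Ni-W cells. The part of HIF in the KDM3A difference was not tested.

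In BEAS-2B cells, all 10 promoters carried H3K4me3 above the library median in UT and Ni-E cells, and KDM6B fell just below it in Ni-W cells. The level was the RPKM of the 4 kb around the gene start, and the start annotation used for it is not given in the sources used here. Each level is from 1 library, so no difference between conditions has a replicate check, and the intervals cover counting error only.

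KDM5A had the highest level, with 11.1 RPKM in UT, 11.6 in Ni-E and 8.24 in Ni-W cells. It stood above 94.6%, 96.2% and 98.0% of listed promoters in the 3 libraries. Its window is nearly that of CCDC77, a gene on the other strand whose start lies 0.047 kb away (11.3, 11.7 and 8.90 RPKM), so the reads of the 2 promoters cannot be told apart. KDM6A had 9.97, 10.1 and 5.75 RPKM. KDM6B was lowest with 2.88, 2.29 and 1.11 RPKM, above 55.0%, 53.8% and 49.9% of promoters.

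In the same order of libraries, levels were 9.90, 10.3 and 3.42 RPKM for KDM4C and 9.24, 8.25 and 5.66 RPKM for KDM5B. KDM4A had 8.79, 8.55 and 4.53 RPKM and KDM4B 8.26, 7.86 and 4.13 RPKM. All 4 were close in UT and Ni-E cells and lower in Ni-W cells. KDM5C had 7.98, 7.80 and 3.93 RPKM, KDM3A 7.02, 7.17 and 5.02 RPKM and KDM2B 7.00, 6.33 and 4.43 RPKM. As the plot of promoter levels shows, each gene had its lowest value in Ni-W cells as deposited, and so did most promoters. The median log2 ratio of Ni-W to UT cells was -0.81 over the 14127 promoters with at least 1 RPKM in a library. Reads summed over the listed promoter windows came to 22.9% of the estimated depth in Ni-W, 37.6% in UT and 36.0% in Ni-E cells. Overlapping windows count the same read more than once, so these are not shares of separate reads.

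**Figure D3:**
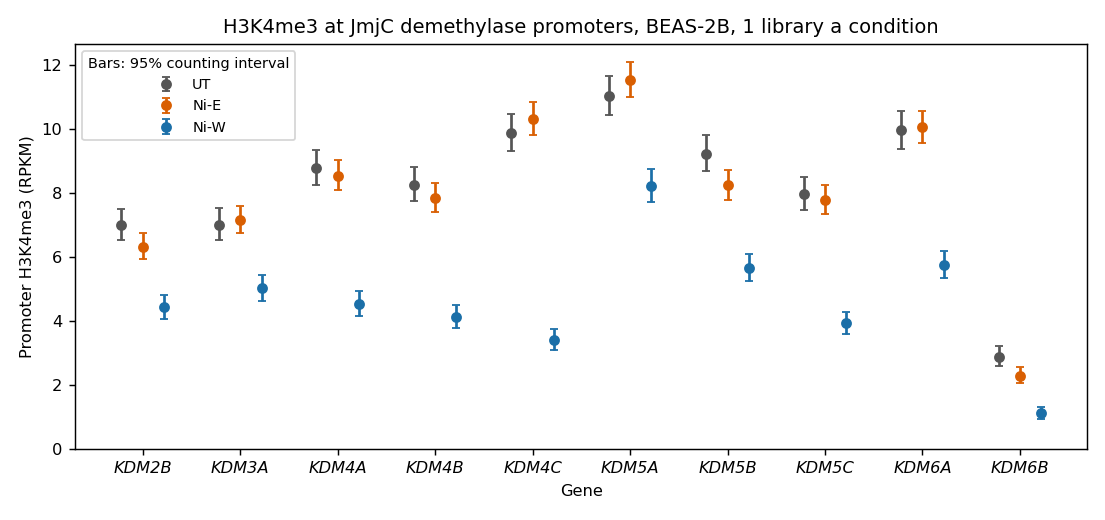
H3K4me3 at the promoters of the 10 genes in BEAS-2B cells, in RPKM as deposited, with 1 library per condition and bars for 95% Poisson intervals of the read counts. Values in UT and Ni-E cells lie close together for each gene, the Ni-W value is the lowest for each, and the gap is widest for KDM4C (9.90 to 3.42 RPKM).

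With each library divided by its median promoter, none of the 10 promoters differed 1.5-fold between Ni-E and UT cells, where 1.01% of marked promoters were higher and 0.595% lower by that much. The members' ratios ran from -0.15 (KDM6B) to 0.24 (KDM5A) on the log2 scale, with a median of 0.14 compared to 0.11 for all marked promoters. As the difference of square roots of the scaled levels, the score of the study's methods, the members' median was 0.115 in Ni-E and -0.305 in Ni-W compared to UT cells and -0.358 in Ni-W compared to Ni-E cells. KDM3A, whose RNA rose in Ni-E RT4 cells, had a ratio of 0.21 in BEAS-2B cells, or 0.09 with a counting interval of -0.04 to 0.22 relative to the strong promoters.

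In Ni-W compared to UT cells, KDM4C and KDM6B were lower by 1.5-fold or more after median scaling, 2 of 10 where 18.4% of all marked promoters were, and none was higher (4.39%). As deposited, 8 of 10 were lower by that much, where 71.0% were. In Ni-W compared to Ni-E cells 5 of 10 were lower where 30.3% were, and none higher (4.07%). At 2-fold, KDM4C alone was lower in both comparisons, where 1.34% and 2.53% of marked promoters were. The members' median log2 ratio was -0.39 compared to -0.32 for all marked promoters in Ni-W compared to UT cells, and -0.55 compared to -0.41 in Ni-W compared to Ni-E cells. Since the median promoter is weakly marked, the libraries were also scaled so that 11017 strong promoters (3 RPKM or more on average over the libraries) had a median ratio of 1. Against this reference 1 member, KDM4C, was 1.5-fold lower in Ni-W than in UT cells, where 1.95% of marked promoters were, and none was 1.5-fold higher, where 10.9% were. Compared to Ni-E cells KDM4C was again the 1 member past that limit (log2 -0.83), where 1.9% of marked promoters were lower and 12.1% higher.

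KDM4C had 0.614 times its UT level on that scale (log2 -0.70, counting interval -0.87 to -0.54), and its rank fell from above 91.5% of promoters in UT and 93.6% in Ni-E to above 72.1% in Ni-W cells. KDM6B had a log2 ratio of -0.54 (-0.83 to -0.25). KDM5A (0.41, interval 0.29 to 0.53) and KDM3A (0.35, 0.20 to 0.50) were higher than the strong promoters on balance, and KDM2B followed with 0.17. With median scaling the ratios of KDM5A and KDM3A were 0.062 and 0.003. The signs of KDM2B, KDM5B and KDM6A depended on the scaling, being negative with median scaling (-0.18, -0.22 and -0.31) and positive here (0.17, 0.13 and 0.04). KDM4A, KDM4B and KDM5C had ratios between -0.19 and -0.13. The plot of ranks within each library, which needs no scaling, shows KDM3A going from above 78.6% to above 85.8% of promoters, and the order of the rank changes is not that of the ratios.

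**Figure D4:**
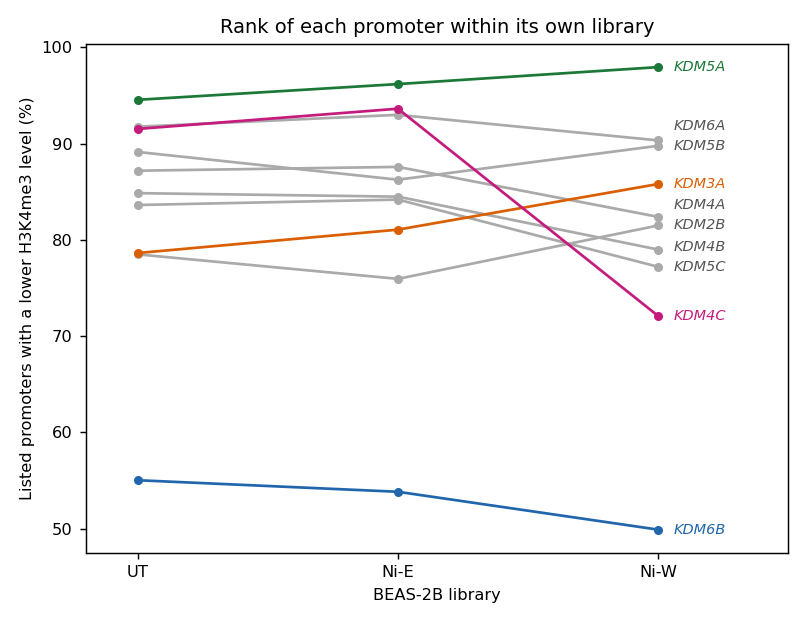
Share of the 26237 listed promoters with a lower H3K4me3 level than each of the 10 genes, within the UT, Ni-E and Ni-W library of BEAS-2B cells, 1 line for each gene. KDM4C falls from 91.5% and 93.6% to 72.1%, KDM5A stays highest at 94.6% to 98.0%, and KDM6B stays lowest at 49.9% to 55.0%.

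Most of the promoters around KDM4C shared its low value in Ni-W cells, but KIAA2026 and MIR4665 lay near the strong promoters. Within 1 Mb of the GENCODE start of KDM4C, 6 other listed promoters had at least 1 RPKM, all to one side. Relative to the strong promoters all 6 were lower in Ni-W than in UT cells, with a median log2 ratio of -0.47. The strong promoters lie on both sides of no change on this scale by construction. GLDC, the glycine decarboxylase gene 75.1 kb away, went from 6.62 RPKM in UT and 6.66 in Ni-E to 1.41 RPKM in Ni-W cells (log2 -1.40). UHRF2 had a ratio of -0.44, RANBP6 of -0.50, ERMP1 of -0.79 and KIAA2026 of -0.06, and MIR4665 (-0.03) shares the window of KIAA2026. In Ni-E compared to UT cells the same 6 promoters had a median ratio of 0.05. The Ni-W cells grew from a single colony, so the effect of past nickel exposure and differences between that colony and the parental cells cannot be told apart. The RefSeq start of KDM4C lies further into the gene than the GENCODE start, so distances depend on the annotation.

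**Figure D5:**
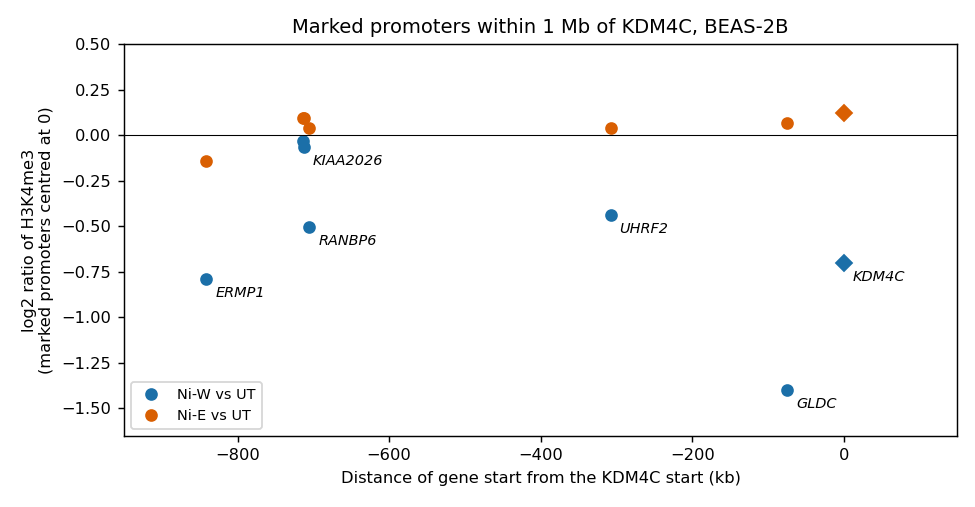
Log2 ratio of promoter H3K4me3 in BEAS-2B cells against the distance from the KDM4C start in kb, relative to the strong promoters, for Ni-W vs UT (blue) and Ni-E vs UT (orange), with KDM4C as diamonds and each other promoter of at least 1 RPKM within 1 Mb as a circle. Orange points lie near 0, blue points at or below 0, and GLDC is lowest at -1.40 (the unlabelled point beside KIAA2026 is MIR4665).

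Surroundings differed for the other members. Listed promoters with overlapping windows share reads, such as SENP3 and SENP3-EIF4A1 near KDM6B. The counts below are therefore of listed genes, not of separate promoters. Around KDM6B, in a gene-dense stretch with 80 other marked promoters within 1 Mb, 75 were lower in Ni-W than in UT cells relative to the strong promoters and the median ratio was -0.37, compared to -0.54 for KDM6B. Around KDM5B 3 of 21 were lower and the median was 0.30, compared to 0.13 for KDM5B, whose window also overlaps that of PCAT6 (start 2.36 kb away). Around KDM3A 18 of 23 were lower with a median of -0.13, compared to 0.35 for KDM3A, and within 0.5 Mb 6 of 11 were lower with a median of 0.00. Similar medians within 1 Mb were found for KDM2B (22 of 29 lower, -0.13), KDM4A (27 of 29, -0.14), KDM4B (24 of 31, -0.12) and KDM5C (8 of 11, -0.12). For KDM5A 1 of 4 was lower (0.04), and for KDM6A the 1 other marked promoter was lower (-0.07). All marked promoters had a median of 0.03 on this scale.

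The values of both lines can be set side by side for the genes above. KDM3A had the largest RNA difference in Ni-E RT4 cells. In Ni-E compared to UT BEAS-2B cells, its promoter ratio was within counting error of the strong promoters (0.09). On that scale its ratio in Ni-W compared to UT cells was 0.35 (interval 0.20 to 0.50). With median scaling the order turned, with 0.21 in Ni-E and 0.003 in Ni-W cells, each compared to UT cells. KDM4C had the lowest promoter ratio in Ni-W BEAS-2B cells, and in Ni-W RT4 cells its RNA differed from UT by 0.08 ± 0.32 (log2). KDM6B was below UT in the Ni-W cells of both lines. In RT4 RNA the difference was -0.49 ± 0.17, which passed the test with the block alone. In BEAS-2B H3K4me3 it was -0.54 relative to the strong promoters, with no replicate and 133 reads in Ni-W cells. Of 80 other marked promoters within 1 Mb of KDM6B, 75 were also lower on that scale, with a median of -0.37. The washout was 2 weeks in RT4 and more than 6 months in BEAS-2B cells. Whether the 2 differences are linked was not tested.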

How the data were processed

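For RT4 the authors deposited RSEM gene tables, which hold estimated counts per gene as RSEM made them. The same deposited tables hold TPM (used for levels and 1 alternative) and transcript lengths. The methods describe alignment to hg19 with STAR, the labels name hg38, and which alignment fed RSEM is not given in the sources used here. For BEAS-2B, the authors deposited promoter RPKM (2 kb on each side of each gene start, BWA, hg38, 1 copy of redundant reads, no peak calling). Whether ChIP replicates were pooled is not given. ChIP input libraries were not used here.

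Expected counts (97.9% whole) were rounded and tested with edgeR 4.0.16 (quasi-likelihood, TMM, its expression filter) in 1 model of 3 groups, with Benjamini-Hochberg adjustment over 14502 genes and a threshold of 0.05. The pipeline was tested on simulated data. Deviations of same-numbered libraries correlated at 0.66, 0.76 and 0.69, where replicate 2 carries the suffix Dup in the titles, so the numbers were taken to pair the samples and block fits are printed. The labels do not say whether replicates were separate cultures, whereas the methods call them biological. Reads were recovered from RPKM steps, and log2 ratios were taken after scaling. Other tools were limma 3.58.1, DESeq2 1.42.0 and RefSeq promoter sequences (GRCh38.p14). Members, lists and the rule for named genes (all 10 members; listed genes where called with 1.5-fold, the 3 HIF targets that changed most, and the 3 genes of most similar pattern) were chosen with earlier results of these data known. Intervals and read counts cover counting error only.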

Additional observations from a re-analysis of the deposited data

Results flagged for a closer look

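Among the 10 members, KDM3A stood out because its nickel effect differed between exposed and washed-out RT4 cells when the replicate number was a block. The Ni-W level minus the Ni-E level was -0.57 on the log2 scale (edgeR adjusted p = 0.0121, lower in 2 of 2 replicate numbers). Without the block the edgeR adjusted p was 0.689. In the same block fit 8 of the 10 HIF targets and 1 of the 13 other dioxygenases, PLOD2 (log2 -1.13), were also lower, and none was higher. Of all tested genes 2.68% were called lower in that fit. KDM2B, KDM4B, KDM4C and KDM6B were also lower in 2 of 2 replicate numbers and did not pass the test in either fit. The share of all tested genes lower in both replicate numbers was not counted, so this agreement has no background.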

How the results depend on the processing

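In RT4 cells, DESeq2, RLE size factors, both count filters and fits of the 2 compared groups alone kept direction and call for all 30 member differences. Members called higher in Ni-E compared to UT cells numbered 1, and 0 with either limma fit, 2 with the replicate block and 0 to 1 with 1 library left out. With the block 1 member was called higher and 1 lower in Ni-W compared to UT cells and 1 lower in Ni-W compared to Ni-E cells, and the block changed no other call of a member. Directions turned for small differences: KDM4A in Ni-W compared to UT cells became 0.026 in both limma fits (pseudocounts 1 and 0.1), and in Ni-W compared to Ni-E cells KDM5A became -0.015 and -0.025 (-0.061 with the block) and KDM6A -0.056 and -0.087 (-0.10 with the block). With 1 library left out, differences in Ni-E compared to UT cells ranged from -0.00055 to 0.32 for KDM2B, -0.17 to 0.62 for KDM5A, -0.14 to 0.34 for KDM5B, -0.58 to 0.95 for KDM6A and -0.24 to 0.032 for KDM6B. Those for Ni-W compared to UT cells ranged from -0.34 to 0.08 for KDM2B, -0.18 to 0.12 for KDM4A, -0.20 to 0.41 for KDM4C, -0.50 to 0.69 for KDM5A, -0.25 to 0.43 for KDM5B and -0.98 to 0.97 for KDM6A. Those for Ni-W compared to Ni-E cells ranged from -0.027 to 0.27 for KDM4A, -0.68 to 0.49 for KDM5A, -0.32 to 0.35 for KDM5B, -0.12 to 0.19 for KDM5C and -1.10 to 0.72 for KDM6A. Over all genes, 211 higher and 103 lower in Ni-E compared to UT cells became 461 and 273 with DESeq2, 1506 and 1073 with the block, 107 and 63 or 112 and 61 with limma, 139 higher with at least 10 counts in every library, and 0 to 214 and 0 to 107 with 1 library left out. The counts of 73 and 14 in Ni-W compared to UT cells became 339 and 98 with DESeq2, 1087 and 606 with the block, 162 and 31 with no filter, 46 and 8 with at least 10 counts, 0 and 0 in the 2-group fit and 0 to 35 and 0 to 3 with 1 library left out. The counts of 0 and 0 in Ni-W compared to Ni-E cells became 89 and 50 with DESeq2, 464 and 389 with the block, 9 and 5 with no filter and 5 and 6 with limma on log2(TPM + 0.1). The cause of these changes was not tested.

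In BEAS-2B cells the median score followed the scaling. Without median scaling it was -0.029 in Ni-E compared to UT cells (0.115 with it), and KDM4A and KDM5C became -0.033 and -0.026. For Ni-W compared to UT cells it was -0.566 without scaling, -0.102 with quantile normalization and -0.033 with strong promoters as reference, and in Ni-W compared to Ni-E cells -0.519, -0.134 and -0.072. Scores that turned positive in Ni-W compared to UT cells with quantile normalization and with strong promoters as reference were KDM2B (0.081 and 0.128) and KDM5B (0.025 and 0.108), and with the latter KDM6A (0.034). Against Ni-E cells these were KDM2B (0.147 and 0.190), KDM3A (0.145 and 0.204), KDM5A (0.154 and 0.286) and KDM5B (0.118 and 0.194). Of the members past 1.5-fold, 2 in Ni-W compared to UT cells became 1 at 2-fold, 8 without scaling and 1 with strong promoters, and 5 in Ni-W compared to Ni-E cells became 1 at 2-fold and 1 with strong promoters. Relative to the strong promoters, the median around KDM4C in Ni-W compared to UT cells was -0.47 within 1 Mb, -0.92 within 0.5 Mb, where it rests on 2 promoters, and -0.44 within 2 Mb. The BEAS-2B differences have no replicate check, and the RT4 tests rest on 2 libraries per group.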
